A study of Mus musculus with 10 samples.

Results

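The genes described here encode enzymes that make foreign and endogenous compounds water-soluble in the liver: glutathione transferases (Gst and membrane-bound Mgst), UDP-glucuronosyltransferases (Ugt), sulfotransferases (Sult) and aldo-keto reductases of family 1 (Akr1). They were chosen by name: every array feature with exactly 1 gene symbol that begins as these families do, with the brightest feature kept for each gene. This gave 49 of the 16401 genes with such a feature, namely 19 Gst, 3 Mgst, 9 Ugt, 7 Sult and 11 Akr1 genes. A filter on dim genes left 36 of the 49 to be tested. Just inside the filter was Gsto2, with a mean log2 level of 7.16, and just outside it was Ugt3a2, with a mean of 7.01. Symbols carried only by features shared between close relatives, among them the Ugt1a genes, Gsta1, Gsta2 and Gstp2, were not analysed here.

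RNA came from primary hepatocytes of male C57BL6/J mice aged 10 weeks. All cells, controls included, carried an adenovirus (2 to 4 pfu per cell) with a short hairpin RNA for 72 hours, and were then given 100 nM glucagon, the fasting hormone, or PBS, its vehicle, for 90 minutes. The groups were shKAT2B (hairpin against Kat2b, a histone acetyltransferase) with glucagon (2 libraries) and PBS (1 library), shWDR5 (hairpin against Wdr5, a scaffold of histone H3 methyltransferase complexes) with glucagon (2) and PBS (1), and shNS (a non-specific hairpin) with glucagon (2) and PBS (2). Each library pooled 3 culture dishes and the labels name 1 hairpin for each target. Nothing in the labels says that the libraries A and B of a group came from separate animals, so each p-value reflects only how far these libraries differ, a spread that may be technical. The series title gives the question as what depletion of each protein does to hepatocyte gene expression.

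Conjugation is the second step of drug and steroid disposal. Glutathione transferases join the tripeptide glutathione to reactive electrophiles, UDP-glucuronosyltransferases of the endoplasmic reticulum add glucuronic acid to steroids, bile acids, bilirubin and drugs, and cytosolic sulfotransferases add sulfate to phenols and catecholamines. Aldo-keto reductases reduce aldehydes and ketones, steroid ketones included, with NADPH. Many of these genes are known targets of the transcription factor NRF2, which binds antioxidant response elements, and of the nuclear receptors that sense xenobiotics in hepatocytes.

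Most of these genes lie in tandem clusters, which the RefSeq gene order of GRCm38.p6 shows. On chromosome 3, Gstm5, Gstm7, Gstm6, Gstm3, Gstm2, Gstm1 and Gstm4 follow each other with 0 other protein-coding genes between them. On chromosome 5 the same holds for Ugt2b34, Ugt2b1, Ugt2b35, Ugt2b36, Ugt2b5, Ugt2b37, Ugt2a3 and Ugt2b38, and on chromosome 13 for Akr1c14, Akr1c18, Akr1c13, Akr1c19, Akr1c12, Akr1c6 and Akr1c20. Close relatives in a cluster can have similar sequences, and how far one gene's probes also bound a relative's RNA was not tested.

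Promoter windows of 4 members are printed below because these members carry the main differences: Akr1c14, Ugt2b5 and Gsta3 were the most lowered tested member of their families in shKAT2B cells, and Gstm4 was the most lowered tested mu class gene in both depletion arms. The sequences are from RefSeq (GRCm38.p6), run 5′ to 3′ on the gene's strand, and cover 250 bases before to 50 after the annotated start. Capitals mark matches to TGACNNNGC, the core of the antioxidant response element, or GCGTG, the core of the xenobiotic response element, searched on both strands.
Akr1c14, chr13:4059341-4059640, plus strand: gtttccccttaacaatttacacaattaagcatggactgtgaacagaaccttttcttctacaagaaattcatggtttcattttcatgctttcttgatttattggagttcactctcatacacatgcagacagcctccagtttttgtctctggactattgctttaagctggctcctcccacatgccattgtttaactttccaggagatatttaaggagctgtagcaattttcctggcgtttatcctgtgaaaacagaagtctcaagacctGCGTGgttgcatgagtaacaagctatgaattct
Ugt2b5, chr5:87140291-87140590, minus strand: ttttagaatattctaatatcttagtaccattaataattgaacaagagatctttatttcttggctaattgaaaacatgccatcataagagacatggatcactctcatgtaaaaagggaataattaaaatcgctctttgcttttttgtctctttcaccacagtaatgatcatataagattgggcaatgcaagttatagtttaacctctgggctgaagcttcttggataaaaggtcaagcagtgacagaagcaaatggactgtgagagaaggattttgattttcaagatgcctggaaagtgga
Gsta3, chr1:21240335-21240634, plus strand: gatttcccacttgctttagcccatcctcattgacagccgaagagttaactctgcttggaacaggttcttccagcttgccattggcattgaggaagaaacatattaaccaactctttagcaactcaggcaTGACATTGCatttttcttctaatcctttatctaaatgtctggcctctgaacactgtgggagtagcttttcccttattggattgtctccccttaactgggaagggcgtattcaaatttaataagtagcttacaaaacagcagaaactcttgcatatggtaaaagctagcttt
Gstm4, chr3:108044810-108045109, minus strand, the first of its 2 windows in the table: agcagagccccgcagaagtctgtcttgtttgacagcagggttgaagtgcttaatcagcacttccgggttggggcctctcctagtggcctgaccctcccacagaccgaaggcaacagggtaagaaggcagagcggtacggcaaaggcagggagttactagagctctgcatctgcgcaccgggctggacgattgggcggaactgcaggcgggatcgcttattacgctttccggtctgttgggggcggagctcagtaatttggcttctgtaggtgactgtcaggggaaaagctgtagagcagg
The Akr1c14 window held GCGTG 17 bases after the start and the Gsta3 window held TGACATTGC. The Ugt2b5 window and both Gstm4 windows held neither motif, which says only that these letters are not in these windows. Of the 49 members, 44 had at least 1 window in the table, 55 windows in all. TGACNNNGC was in 9.09% of these windows, against 12.4% of all 32851 windows. GCGTG was in 21.8% of member windows, against 32.4% of all windows. The cyclic AMP response element TGACGTCA was in 0 member windows, against 1.79% of all windows, and its core TGACG, which the full element contains, was in 9.09%, against 20.8%. Members with a match to TGACNNNGC were Akr1c19, Gsta3 and Gstm5, each in its 1 window, and Gstm7 and Mgst1, each in 1 of 2 windows.

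Levels below are log2(intensity + 1), intensity being the array's linear brightness, and a difference between arms is a log2 fold change with the model's standard error. Brightness depends on the probes, so a level is compared between libraries of 1 gene and never between genes. The targeted genes followed the labels. Kat2b was at 6.93, 6.60 and 6.61 in the shKAT2B libraries, against 9.40 to 9.59 in the other 7, and Wdr5 was at 8.32, 8.40 and 8.19 in the shWDR5 libraries, against 9.98 to 10.07 in the others. Median intensity lay between 282.1 and 298.2 over the libraries and precision rests on how many libraries each arm has, since arrays count no reads. The A libraries of shKAT2B glucagon, shWDR5 glucagon, shNS glucagon and shNS PBS (4 libraries) stood apart from the other 6 along the leading component of what arm and treatment left over (78.04% of the residual variance). They are called the first library set here and the other 6, with 1 library of each group, the second. The mean level of Kupffer cell and leukocyte markers was 8.57 to 8.88 in the first set and 9.07 to 9.50 in the second, and that of endothelial markers 8.31 to 8.48 and 8.63 to 9.07. Stellate cell and fibroblast markers went the other way, with 8.39 to 8.58 in the first set and 8.02 to 8.23 in the second. Of the hepatocyte markers on the array, 9 of 10 passed the filter and Cyp2e1 did not.

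Hepatocytes with the Kat2b hairpin had less RNA for an Akr1c steroid reductase, for the Ugt2b glucuronosyltransferases and for alpha and mu class glutathione transferases. Relative to shNS, 18 of the 36 tested members fell and 1 rose (19 called, 52.8%), against 15.6% of all 11480 genes tested, of which 8.95% fell and 6.66% rose. The median log2 fold change was -0.30 over the members and 0.01 over all genes tested. The libraries of the arms did not overlap for 22 members, against 26.6% of all genes. A gene is called at a Benjamini-Hochberg adjusted p below 0.05 over all genes tested.

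**Figure D1:**
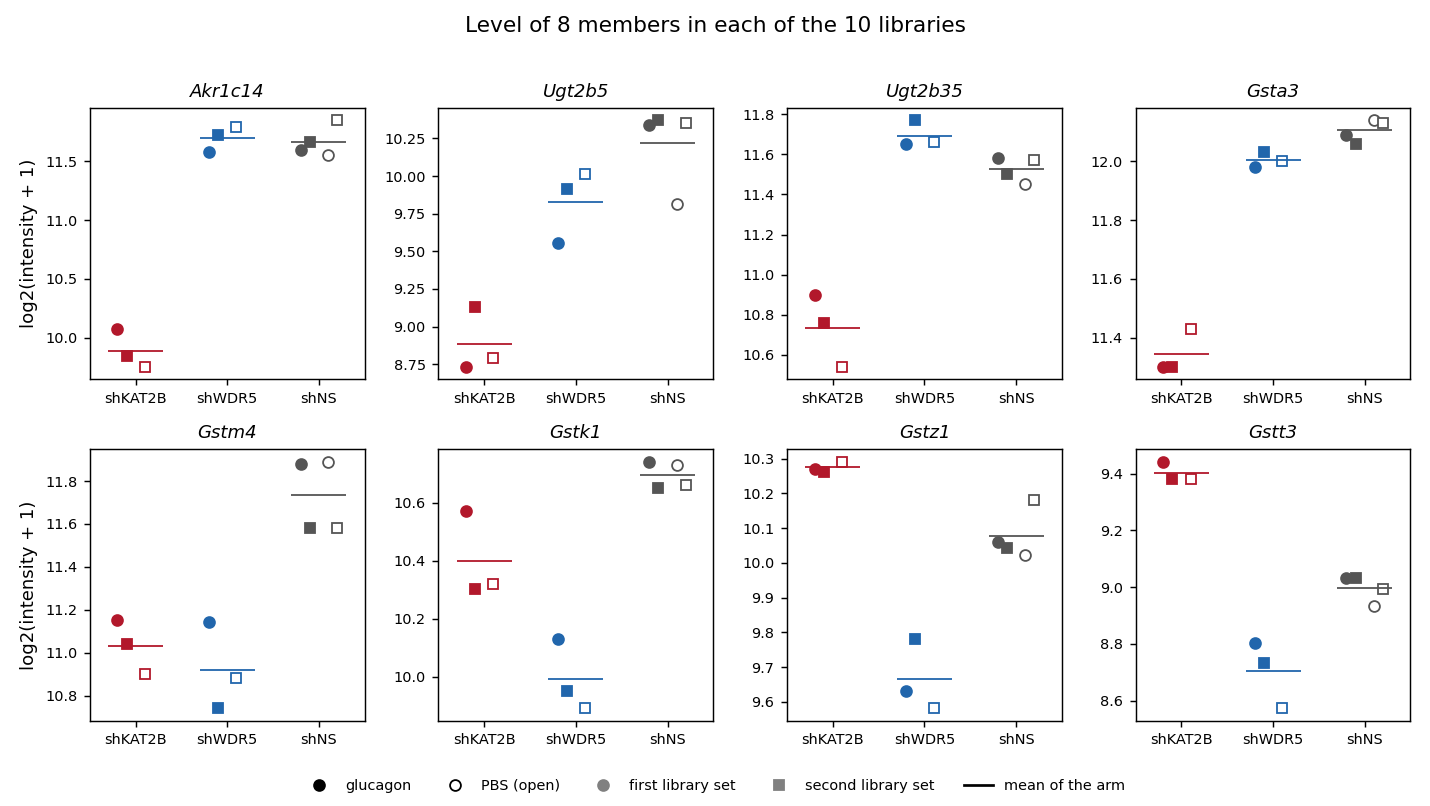
Level of 8 members, as log2(intensity + 1), in each library of shKAT2B, shWDR5 and shNS cells. Filled points are glucagon and open points PBS, circles the first and squares the second library set, and lines the mean of an arm. Akr1c14 lies between 9.75 and 10.07 in the 3 shKAT2B libraries and at 11.55 or above in the other 7, and Gstt3 lies highest in shKAT2B and lowest in shWDR5 cells.

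Akr1c14, a hydroxysteroid dehydrogenase that reduces steroid ketones such as dihydrotestosterone, showed the most negative change of the tested members. Its level was 10.07, 9.84 and 9.75 in the shKAT2B libraries, against 11.60, 11.66, 11.55 and 11.85 in shNS, so every shKAT2B library lay more than 1 log2 unit below every shNS library. The fall was 1.78 ± 0.10 on the log2 scale, or 3.42-fold (adjusted p = 4.19e-05). Of its cluster neighbours, Akr1c13 fell by 0.45 ± 0.09 (adjusted p = 0.0123), with 9.13, 8.89 and 8.79 in shKAT2B libraries, against 9.46, 9.29, 9.47 and 9.28 in shNS. Akr1c12 (-0.10, adjusted p = 0.535) and Akr1c20 (-0.11, adjusted p = 0.538) did not pass. Akr1c18, which inactivates progesterone, had a change of 0.55 ± 0.41 that did not pass (adjusted p = 0.428; 0.75 and 0.0146 with the replicate block described below), and its level followed the library set: 8.32 to 8.51 in the first and 9.20 to 9.83 in the second. None of the 4 other tested Akr1 genes passed: Akr1a1, the aldehyde reductase of ascorbate synthesis in mice, was at 0.01 (95% interval -0.14 to 0.16), Akr1e1 at 0.06, Akr1b8 at -0.03 and Akr1b10 at 0.39 ± 0.17 (adjusted p = 0.174).

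Of the 5 tested Ugt2b genes, 4 fell and the remaining one, Ugt2b34, was at -0.24 ± 0.07 (adjusted p = 0.0519). Ugt2b5 was at 8.73, 9.13 and 8.79 in shKAT2B libraries, against 10.34, 10.37, 9.81 and 10.35 in shNS, a fall of 1.35 ± 0.17 or 2.54-fold (adjusted p = 0.00147). The lowest shNS library, PBS A, was still above the highest shKAT2B library. Ugt2b38 was at 8.19, 8.26 and 7.76 in shKAT2B libraries, against 9.19, 8.97, 8.97 and 8.86 in shNS (fall of 0.97 ± 0.13, adjusted p = 0.00158). Ugt2b35 was at 10.90, 10.76 and 10.54 in shKAT2B libraries, against 11.58, 11.50, 11.45 and 11.57 in shNS (fall of 0.81 ± 0.07, adjusted p = 0.000328). Ugt2b36 fell by 0.71 ± 0.07 (adjusted p = 0.000463). The arms did not overlap for any of the 5 genes.

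Both tested alpha class glutathione transferases fell. Gsta3, which in mice conjugates the epoxide of aflatoxin, was at 11.30, 11.30 and 11.43 in shKAT2B libraries, against 12.09, 12.06, 12.14 and 12.13 in shNS, a fall of 0.75 ± 0.04 or 1.68-fold (adjusted p = 4.19e-05). Gsta4, which conjugates the lipid peroxidation product hydroxynonenal, was at 11.31, 11.37 and 11.44 in shKAT2B libraries, against 12.10, 12.11, 12.08 and 12.10 in shNS (fall of 0.72 ± 0.05, adjusted p = 7.27e-05). The 3 or 4 libraries of each arm lay close together for both genes, within 0.13 log2 units.

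The mu class, the broad-range conjugators of aryl and alkyl electrophiles, had 7 tested members, of which 5 fell and the other 2, Gstm2 (-0.31, adjusted p = 0.128) and Gstm3 (-0.38, adjusted p = 0.0766), did not pass. Gstm1 was at 12.71, 12.87 and 12.89 in shKAT2B libraries, against 13.44, 13.37, 13.45 and 13.37 in shNS (fall of 0.58 ± 0.05, adjusted p = 0.000259). Gstm4 was at 11.15, 11.04 and 10.90 in shKAT2B libraries, against 11.88, 11.58, 11.89 and 11.58 in shNS (fall of 0.71 ± 0.12, adjusted p = 0.00489). Neither gene's arms overlapped, and the 2 higher shNS libraries of Gstm4 are those of the first set. Gstm6 fell by 0.56 ± 0.10, Gstm7 by 0.33 ± 0.07 and Gstm5 by 0.21 ± 0.06. Gstm3 had a second single-symbol feature, and the 2 disagreed: -0.39 for the brighter and 0.03 for the dimmer, as plain differences of arm means.

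Among the remaining transferases, the pi class gene Gstp1 fell by 0.26 ± 0.05 (adjusted p = 0.00841) with 13.30, 13.31 and 13.37 in shKAT2B libraries, against 13.60, 13.62, 13.48 and 13.68 in shNS. Gsto1 of the omega class, which reduces dehydroascorbate and arsenic compounds, Gstk1 of mitochondria and peroxisomes, and Gstt1 of the theta class, which acts on halogenated alkanes, fell by 0.24, 0.31 and 0.35 (adjusted p = 0.0367, 0.0333 and 0.0402). The sulfotransferase Sult1d1, which acts on catecholamines, fell by 0.37 ± 0.09 (adjusted p = 0.0245), while Sult1c2 (-0.29, adjusted p = 0.219) and the membrane-bound Mgst1 (-0.13, adjusted p = 0.214) and Mgst3 (-0.32, adjusted p = 0.139) did not pass. Gstt3 was the 1 tested member called higher in this fit: it was at 9.44, 9.38 and 9.38 in shKAT2B libraries, against 9.03, 9.03, 8.93 and 8.99 in shNS, a rise of 0.39 ± 0.07 (adjusted p = 0.00495). Its theta class neighbours on chromosome 10 did not share this: Gstt1 fell and Gstt2 was at 0.06 (adjusted p = 0.861).

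With the letter A or B of the libraries as a replicate block, 27 members passed in shKAT2B cells, where 29.6% of all genes were called. The 19 calls above were among them, and 8 members that did not pass without the block did so with it. Akr1c18 (0.75, adjusted p = 0.0146) and Gstz1 (0.21, adjusted p = 0.0316) were then higher. Ugt2b34 (-0.27, adjusted p = 0.00401), Gstm2 (-0.25, adjusted p = 0.00731), Gstm3 (-0.33, adjusted p = 0.0136), Mgst1 (-0.15, adjusted p = 0.0288), Sult1c2 (-0.35, adjusted p = 0.03) and Mgst3 (-0.26, adjusted p = 0.0369) were then lower. The block codes the shKAT2B PBS library as A, though it lies in the second set with the B libraries. Between libraries of the same set and treatment, shKAT2B minus shNS was 0.07, 0.63 and 0.29 for Akr1c18. For Gstz1 it was 0.21, 0.22 and 0.11. What the coding added to these calls was not tested.

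With any 1 library left out, 10 of the 19 calls of shKAT2B cells stayed in every such fit: Akr1c14, Gsta3, Gsta4, Gstm1, Gstm6, Gstp1, Ugt2b35, Ugt2b36, Ugt2b38 and Ugt2b5. Without the shKAT2B PBS library, 10 members were called in place of 19. That library alone decided Gstm4, Gstm7 and Gstt3, whose adjusted p without it were 0.0528, 0.0801 and 0.0579, and Akr1c13 was lost without it or without shKAT2B glucagon B (adjusted p up to 0.112). Gstk1 was lost without shKAT2B PBS A or glucagon B, shWDR5 PBS A, or shNS glucagon A, PBS A or PBS B (up to 0.188), and Sult1d1 without any 1 of the shKAT2B or shNS libraries (up to 0.0939). Gsto1 was lost without any 1 shNS library, shKAT2B PBS A or glucagon B or shWDR5 PBS A (up to 0.257), Gstt1 without any 1 shNS library, shKAT2B PBS A or glucagon B or shWDR5 glucagon A (up to 0.251), and Gstm5 without any 1 library except shWDR5 glucagon B (up to 0.131). All 19 passed with a term for the library set, but the set was read from these same libraries. With the term 4766 of all genes were called in place of 1792, so these passes add little.

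Hepatocyte marker genes also moved with this arm. Of 9 tested, 5 fell in shKAT2B cells: Tdo2 by 1.40, Ttr by 0.91, Fga by 0.75, Fgb by 0.46 and Hnf4a by 0.33, and Alb was at -0.13 (adjusted p = 0.249). The mean level over the hepatocyte markers was 10.83 to 10.93 in shKAT2B libraries, 11.20 to 11.42 in shWDR5 and 11.26 to 11.50 in shNS. Mean levels of Kupffer cell and leukocyte markers and of endothelial markers were higher than in shNS within each library set, the latter only slightly in the first. The mean level of Kupffer cell and leukocyte markers was 8.73 in the shKAT2B library of the first set, against 8.57 and 8.60 in shNS, and 9.42 and 9.50 in those of the second set, against 9.07 and 9.22 in shNS. Of the 12 tested, 0 were called by limma without a library set term. At an unadjusted p below 0.05, 1 passed, against 3331 of all 11480 genes tested. With the term 7 rose, where 41.5% of all genes were called. Endothelial markers averaged 8.36 in the shKAT2B library of the first set, against 8.31 and 8.32 in shNS, and 8.99 and 9.07 in those of the second, against 8.63 and 8.74 in shNS. In the first set Lyve1 and Clec4g were lower in the shKAT2B library than in either shNS library. Of the 11 tested endothelial markers, 1 rose without the term, where 15.6% of all genes were called. With the term 5 rose, a count near the share of all genes. Of 8 tested stellate cell and fibroblast markers, 0 were called without the term (0 at an unadjusted p below 0.05) and 5 rose with it. All 9 tested hepatocyte markers fell with the term. Of 4 tested cholangiocyte markers, 1 rose and 1 fell, both with and without the term. The part of these differences in the falls above was not tested, and in bulk RNA fewer cells of a type and less RNA per cell cannot be told apart.

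**Figure D2:**
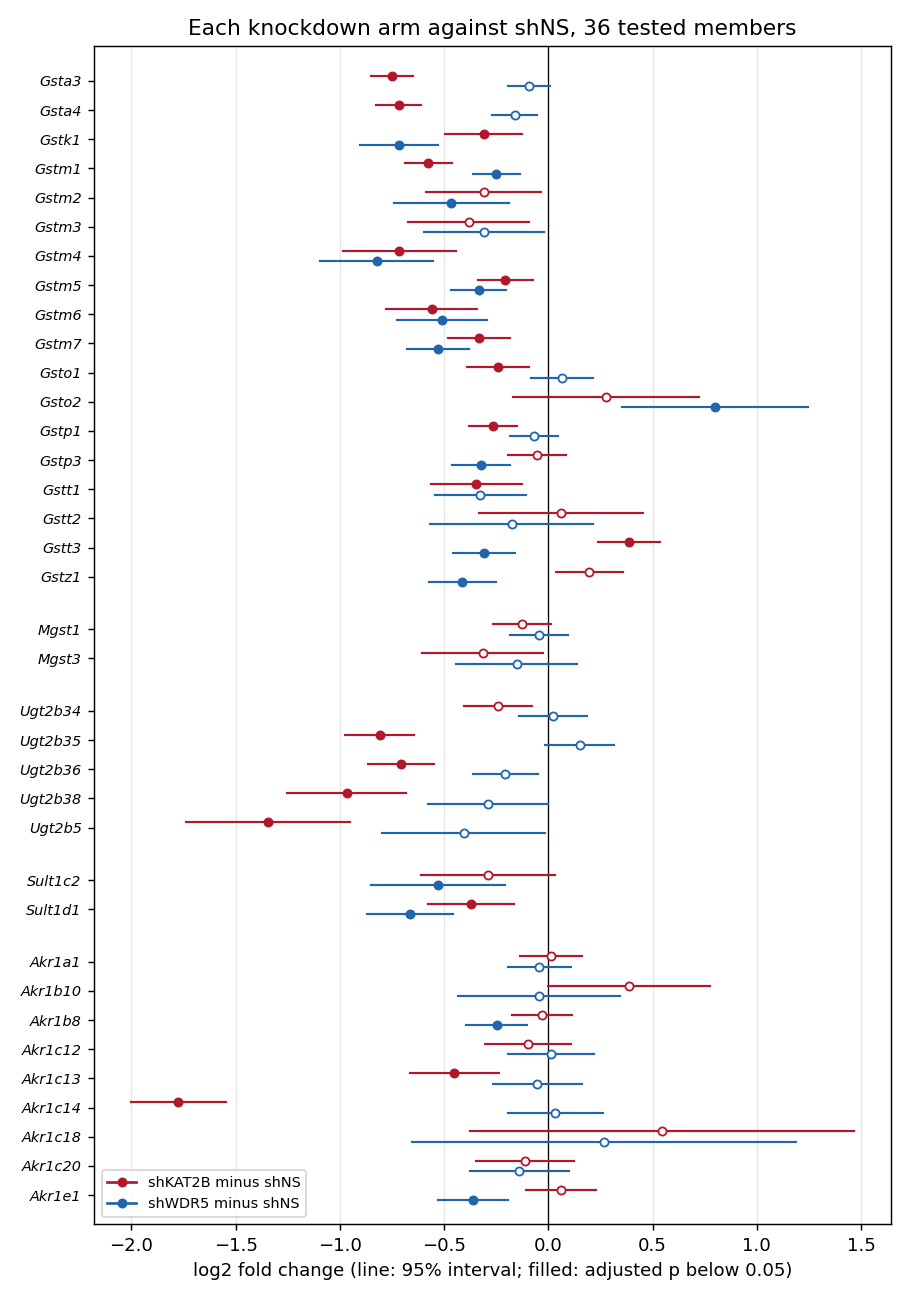
Log2 fold change of the 36 tested members in shKAT2B (red) and shWDR5 (blue) cells against shNS, grouped from top to bottom as Gst, Mgst, Ugt, Sult and Akr1. Lines are 95% intervals, and filled points passed the test. The red Ugt2b and Gsta points lie left of the blue ones, Akr1c14 lies at -1.78 in shKAT2B and 0.03 in shWDR5 cells, and both colours lie left of 0 in the Gstm genes.

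Hepatocytes with the Wdr5 hairpin had less RNA mainly for glutathione transferases, the mu class above all, and for both tested sulfotransferases. Relative to the same shNS libraries, 14 of 36 members fell and 1 rose (15 called, 41.7%), against 10.9% of all genes tested, of which 6.17% fell and 4.69% rose. The median was -0.23 over the members and -0.01 over all genes tested, and the arms did not overlap for 21 members, against 24.2% of all genes. By family, 11 of 18 Gst, 2 of 2 Sult, 2 of 9 Akr1, 0 of 5 Ugt and 0 of 2 Mgst genes were called. At an unadjusted p below 0.05, 3 of the Ugt genes and 0 of the Mgst genes passed, against 2956 of all 11480 genes tested.

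In the mu class 6 of 7 fell and all 7 had libraries that did not overlap with shNS. Gstm4 was at 11.14, 10.74 and 10.88 in shWDR5 libraries, against 11.88, 11.58, 11.89 and 11.58 in shNS, a fall of 0.82 ± 0.12 or 1.77-fold (adjusted p = 0.00497). Gstm7 was at 8.75, 8.78 and 8.81 in shWDR5 libraries, against 9.25, 9.37, 9.30 and 9.33 in shNS (fall of 0.53 ± 0.07, adjusted p = 0.00299). Gstm6 fell by 0.51 ± 0.10, Gstm2 by 0.47 ± 0.12, Gstm5 by 0.33 ± 0.06 and Gstm1 by 0.25 ± 0.05. Gstm3 was at -0.31 (adjusted p = 0.168, or 0.0445 with the replicate block). This and the lack of overlap are for its brighter feature. As plain differences of arm means, the brighter was at -0.32 and the dimmer at -0.15. Overlap was not tested for the dimmer.

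Gstk1 of the kappa class was at 10.13, 9.95 and 9.89 in shWDR5 libraries, against 10.74, 10.65, 10.73 and 10.66 in shNS, a fall of 0.72 ± 0.08 (adjusted p = 0.00215). Gstz1, the maleylacetoacetate isomerase of tyrosine breakdown, was at 9.63, 9.78 and 9.58 in shWDR5 libraries, against 10.06, 10.04, 10.02 and 10.18 in shNS (fall of 0.41 ± 0.07, adjusted p = 0.0089). Both genes' arms were apart in every library. Gstp3 fell by 0.32 and Gstt3 by 0.31 (adjusted p = 0.0134 and 0.0203), while the alpha class genes did not pass: Gsta3 was at -0.09 (95% interval -0.19 to 0.01) and Gsta4 at -0.16 (adjusted p = 0.0644, or 0.0371 with the replicate block). Gsto2 of the omega class rose, with 7.54, 7.78 and 7.59 in shWDR5 libraries, against 6.66, 7.20, 6.62 and 6.86 in shNS (rise of 0.80 ± 0.20, adjusted p = 0.0341). It is the dimmest tested member, and its neighbour Gsto1 was at 0.06 (adjusted p = 0.599).

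Sult1d1 was at 8.58, 8.32 and 8.13 in shWDR5 libraries, against 9.06, 9.05, 8.93 and 8.87 in shNS, a fall of 0.66 ± 0.09 (adjusted p = 0.00396). Sult1c2 fell by 0.53 ± 0.14 (adjusted p = 0.0461). In the Akr1 family, Akr1e1, an anhydrofructose reductase, fell by 0.36 ± 0.07 (adjusted p = 0.0182) and Akr1b8 by 0.25 ± 0.06 (adjusted p = 0.0399). Akr1c14 did not pass: it was at 11.58, 11.72 and 11.79 in shWDR5 libraries, within the shNS range of 11.55 to 11.85, and its change was 0.03 with a 95% interval of -0.20 to 0.27. No Ugt2b gene passed without the replicate block, and with it Ugt2b36 did (-0.23, adjusted p = 0.0106). Ugt2b35 was at 0.15 (adjusted p = 0.244) and Ugt2b5 at -0.41 (adjusted p = 0.179), with 9.55, 9.91 and 10.01 in shWDR5 libraries that overlapped shNS through its PBS A library at 9.81.

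The replicate block gave 19 members in shWDR5 cells, where 26.7% of all genes were called: the 15 above and Gsta4, Gstm3, Ugt2b36 and Gstt1 (-0.37, adjusted p = 0.0032), all lower. The shWDR5 PBS library is likewise coded A but lies in the second set.

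Some of these calls were lost when a library was left out. Gstk1, Gstm4, Gstm7 and Sult1d1 (4 of 15) were called in each of these fits. The number of members called was 4 without the shWDR5 PBS library, 7 without shWDR5 glucagon B and 8 without shNS glucagon A. The shWDR5 PBS library alone decided Gstm6, Gstm5 and Gstz1, whose adjusted p without it were 0.0573, 0.0672 and 0.08. Gstp3 was lost without that library or shWDR5 glucagon B (up to 0.0534), Akr1e1 and Gstm1 without either of those or shNS glucagon A (up to 0.0694 and 0.0877), and Gstt3 without any of those 3 or shNS PBS B (up to 0.157). Gsto2 was lost without any 1 shWDR5 library or shNS glucagon A, PBS A or PBS B (up to 0.134). Sult1c2 was lost without any 1 library except shNS PBS B and the shKAT2B glucagon libraries (up to 0.149), Gstm2 without any except the shKAT2B glucagon libraries (up to 0.181) and Akr1b8 without any except shKAT2B glucagon A (up to 0.238). All 15 passed with a term for the library set, but here too these passes add little. With the term 4229 of all genes were called in place of 1246.

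Some hepatocyte and cholangiocyte markers were called in this arm too, where 10.9% of all genes were. Of 9 tested hepatocyte markers, Tdo2 rose by 0.68 and Alb and Trf fell by 0.30 and 0.24. The mean level of cholangiocyte markers was 8.07 to 8.29 in shWDR5 libraries, against 8.39 to 8.63 in shNS, and 2 of 4 tested fell. Krt19, a keratin of bile duct cells, was at 10.83, 10.01 and 10.16 in shWDR5 libraries, against 11.01, 11.07, 11.25 and 11.16 in shNS. Kupffer cell and leukocyte markers averaged 8.88 in the shWDR5 library of the first set, against 8.57 and 8.60 in shNS, and 9.32 and 9.36 in those of the second, against 9.07 and 9.22 in shNS. Of the 12 tested, 0 were called by limma without a library set term. At an unadjusted p below 0.05, 1 passed, against 2956 of all 11480 genes tested. With the term 4 rose, where 36.8% of all genes were called. Of 11 endothelial markers 0 were called without the term (1 at an unadjusted p below 0.05) and 2 rose with it. Of 8 stellate cell and fibroblast markers 0 were called without the term (0 at an unadjusted p below 0.05) and 3 rose with it. For the Kupffer cell, endothelial and stellate cell lists, the counts with the term lay near or below the share of all genes. Of the 9 hepatocyte markers, 5 fell and 1 rose with the term. The part of these differences in the changes of the members was not tested.

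The direct comparison of the depletion arms, shKAT2B minus shWDR5, shows which of these changes differ between the hairpins. It called 18 of 36 members, 12 lower and 6 higher in shKAT2B cells, against 22.7% of all genes tested, of which 11.5% were lower and 11.2% higher. The median was -0.035 (all genes 0.02), and the libraries did not overlap for 22 members, against 36.2% of all genes. The 3 comparisons between arms share libraries, so their values are set side by side and not correlated.

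All 5 tested Ugt2b genes were lower in shKAT2B than in shWDR5 cells. Ugt2b35 differed by -0.96 ± 0.08 (adjusted p = 0.000144), with 10.90, 10.76 and 10.54 in shKAT2B libraries, against 11.65, 11.77 and 11.66 in shWDR5. Ugt2b5 differed by -0.94 ± 0.18, Ugt2b38 by -0.68 ± 0.13, Ugt2b36 by -0.50 ± 0.07 and Ugt2b34 by -0.27 ± 0.08. Akr1c14 differed by -1.81 ± 0.11 (3.50-fold, adjusted p = 3.25e-05), Gsta3 by -0.66 ± 0.05 (adjusted p = 8.13e-05) and Gsta4 by -0.56 ± 0.05 (adjusted p = 0.000222).

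Of the 7 tested mu class genes, only Gstm1 passed between the arms, lower in shKAT2B cells (-0.33 ± 0.05, adjusted p = 0.00279). Gstm4 was at -0.71 against shNS in shKAT2B cells and -0.82 in shWDR5 cells, and the difference between the arms was 0.11 with a 95% interval of -0.18 to 0.40. Gstm6 was at -0.56 in shKAT2B and -0.51 in shWDR5 cells, a difference of -0.05 (95% interval -0.28 to 0.18). These intervals do not show that the genes responded alike.

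The 6 members higher in shKAT2B than in shWDR5 cells were Gstt3, Gstz1, Akr1e1, Gstk1, Gstp3 and Akr1b8. Gstt3 differed by 0.70 ± 0.07 (adjusted p = 0.000315), with 9.44, 9.38 and 9.38 in shKAT2B libraries, against 8.80, 8.73 and 8.57 in shWDR5. Against shNS it rose by 0.39 in shKAT2B cells and fell by 0.31 in shWDR5 cells, so the shNS libraries lay between those of the other arms. Gstz1 differed by 0.61 ± 0.07 (adjusted p = 0.000789), and its change against shNS was 0.20 in shKAT2B cells (adjusted p = 0.0962) and -0.41 in shWDR5 cells. Akr1e1 differed by 0.42 ± 0.08, Gstk1 by 0.41 ± 0.09, Gstp3 by 0.27 ± 0.06 and Akr1b8 by 0.22 ± 0.07.

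With the replicate block 21 members passed, where 36.1% of all genes were called: the 18 above, Akr1b10 (0.43, adjusted p = 0.019) and Sult1d1 (0.29, adjusted p = 0.0286), both higher, and Gsto2 (-0.52, adjusted p = 0.0253), lower in shKAT2B cells.

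Of the 18 calls without the block, 11 stayed whichever library was left out: Akr1c14, Akr1e1, Gsta3, Gsta4, Gstm1, Gstt3, Gstz1, Ugt2b35, Ugt2b36, Ugt2b38 and Ugt2b5. Gstk1 was lost without shWDR5 PBS A (adjusted p = 0.0604) and Gsto1 (-0.31) without shKAT2B PBS A or shWDR5 PBS A (up to 0.0739). Gstp3 was lost without shKAT2B PBS A or glucagon B or shWDR5 glucagon B (up to 0.0719), and Akr1c13 (-0.40) without either of those shKAT2B libraries or shWDR5 PBS A or glucagon A (up to 0.101). Ugt2b34 was lost without shKAT2B PBS A or glucagon B or any 1 shWDR5 library (up to 0.153), Gstp1 (-0.20) without any 1 shKAT2B or shWDR5 library (up to 0.121), and Akr1b8 without any except shNS PBS A and shWDR5 glucagon A (up to 0.191).

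**Figure D3:**
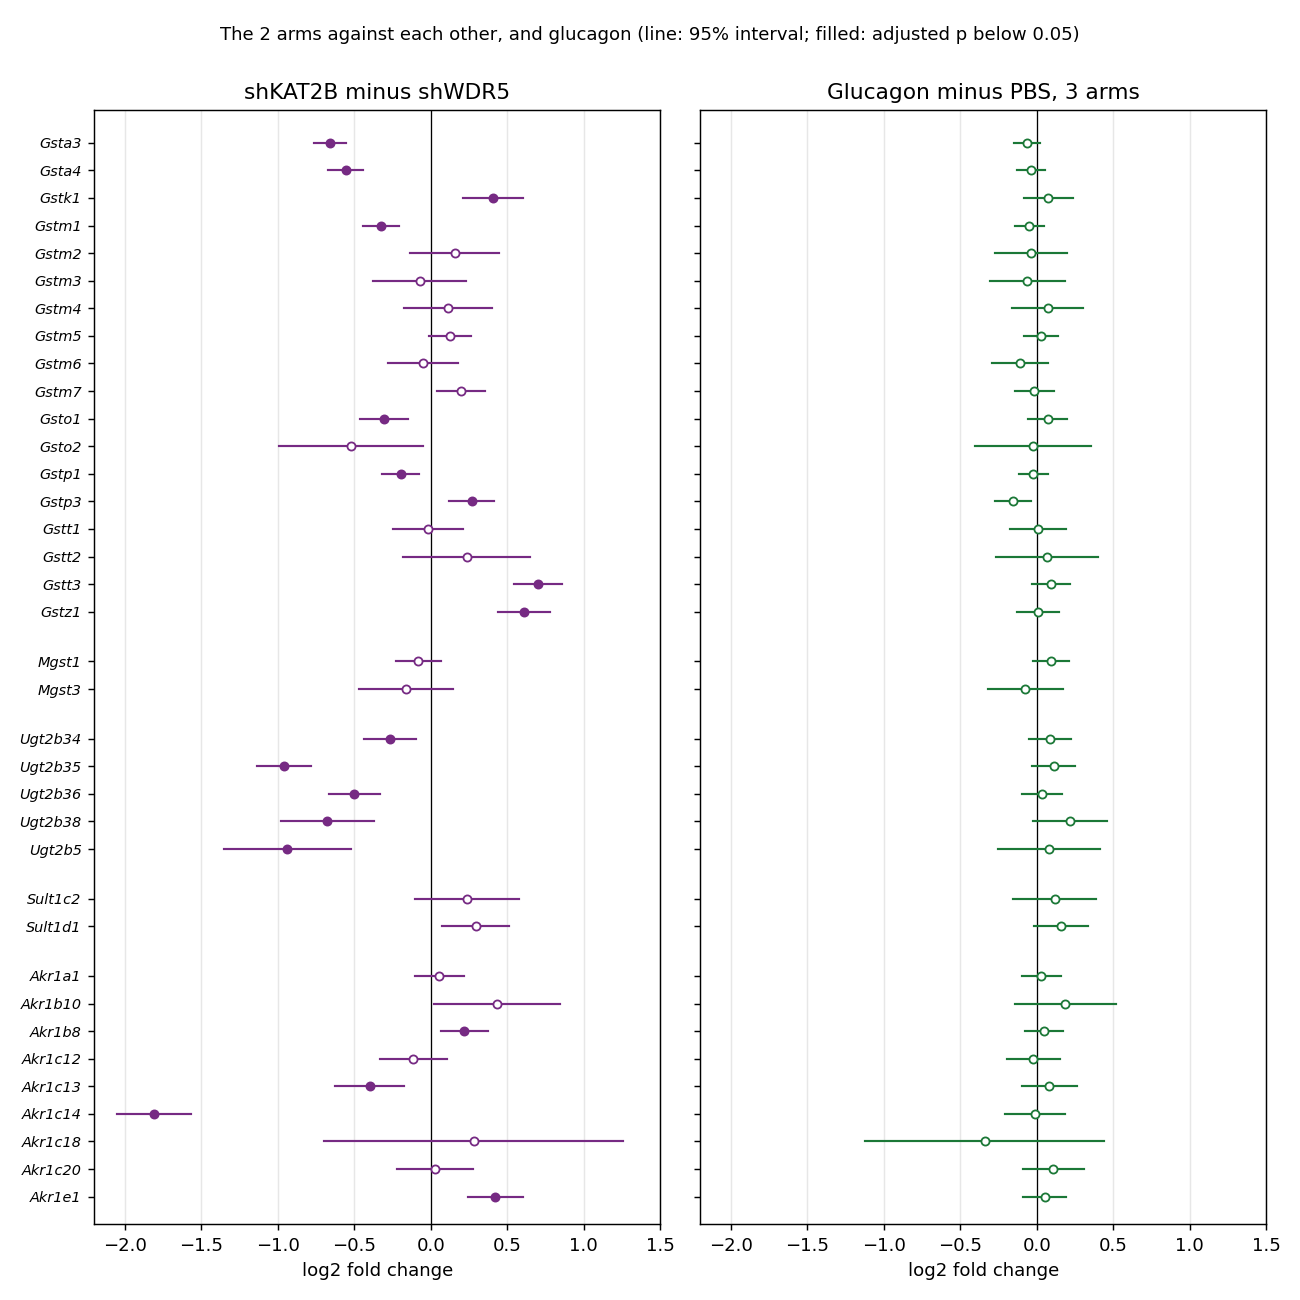
Log2 fold change of the 36 tested members between shKAT2B and shWDR5 cells (left) and between glucagon and PBS over the 3 arms (right), with 95% intervals, members ordered as Gst, Mgst, Ugt, Sult and Akr1 from top to bottom. Filled points passed the test: 12 lie left and 6 right of 0 in the left panel, and 0 are filled in the right panel.

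No member passed the test of glucagon against PBS after 90 minutes. Over the 3 arms 0 of 36 members were called, against 0.923% of all genes tested (106 genes). At an unadjusted p below 0.05 in limma's test 1 member passed, against 549 of all 11480 genes tested. Neither count departs much from the share of all genes. The median was 0.03 over the members and 0.015 over all genes tested, and the 95% interval of the change lay within 0.5 log2 units of 0 for 34 of the 36. The 2 others were Akr1c18 (-1.12 to 0.44) and Akr1b10 (-0.14 to 0.52). The smallest p was that of Gstp3, at 10.44 and 10.53 with glucagon and 10.64 with PBS in shKAT2B cells, 10.22 and 10.16 with glucagon and 10.43 with PBS in shWDR5 cells, and 10.51 and 10.63 with glucagon and 10.70 and 10.63 with PBS in shNS cells. Its change was -0.15 ± 0.05 and did not pass (adjusted p = 0.556). Next in order of p were Sult1d1 at 0.16 and Ugt2b38 at 0.22, which did not pass either. In shNS cells alone 0 of 36 members were called, against 0.192% of all genes tested, all of them higher.

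Whether a hairpin altered the response to glucagon was tested as the difference of responses, and 0 of 36 members passed for either hairpin, as did 0% of all genes tested. At an unadjusted p below 0.05, 0 members passed for either, against 36 genes in all for shKAT2B and 20 for shWDR5. The 95% intervals were wide, since each depletion arm has 1 PBS library: they lay within 0.5 log2 units of 0 for 12 members in shKAT2B and 16 in shWDR5 cells. With the letter A or B as a replicate block, 3 members passed for each hairpin: Akr1c18 (-1.03), Gsto2 (-0.82) and Akr1b10 (0.58) for shKAT2B, where 12.1% of all genes passed, and Ugt2b5 (-0.72), Akr1b10 (0.60) and Gstm3 (-0.41) for shWDR5, where 4.75% passed. With the library set as a term in its place, 0 passed for either. The PBS libraries of both depletion arms carry the letter A but lie in the second set with the B libraries.

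**Figure D4:**
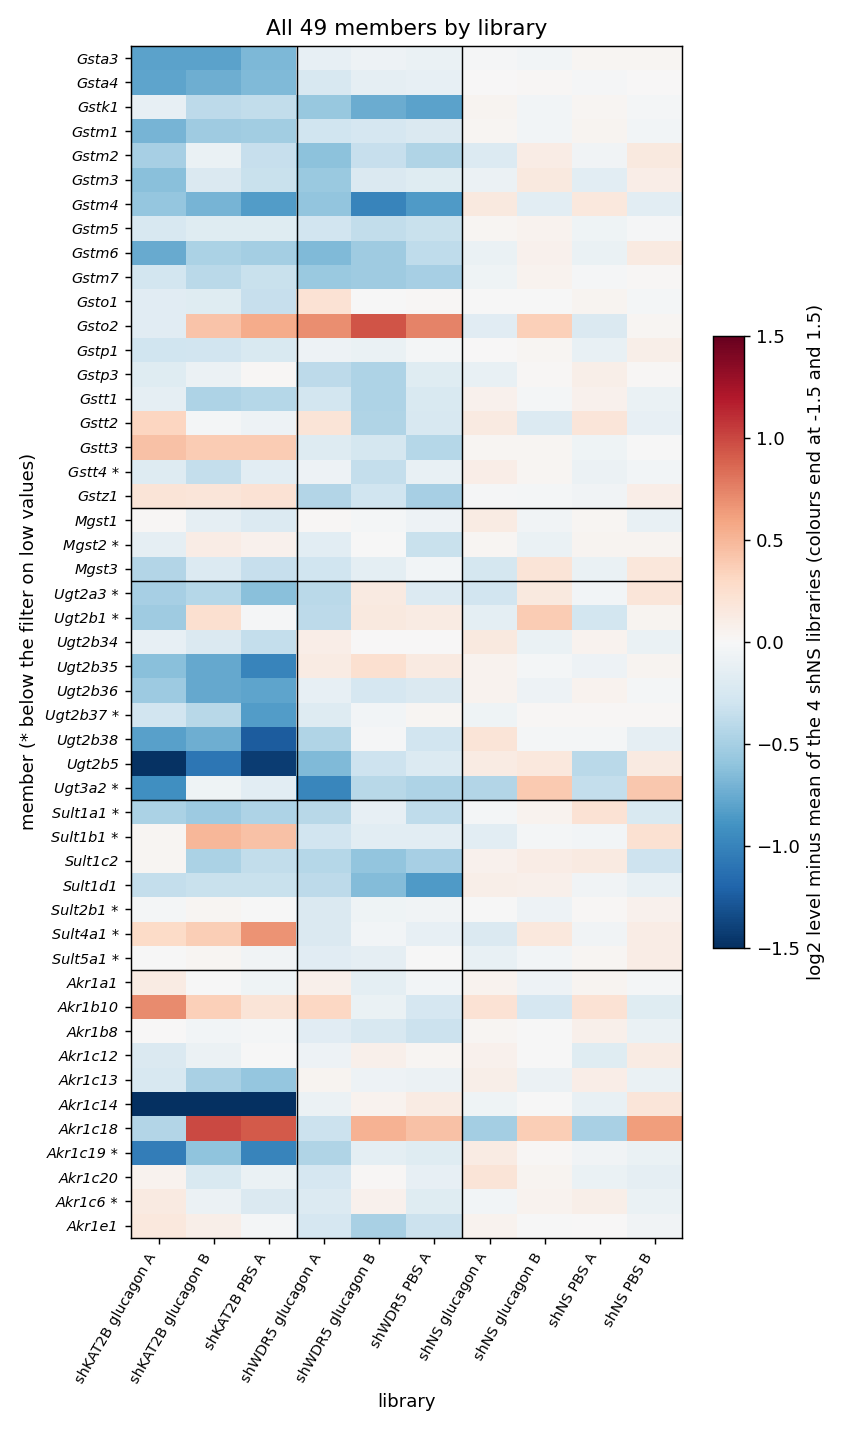
Level of all 49 members in each library, as the log2 difference from the mean of the 4 shNS libraries, with libraries of shKAT2B, shWDR5 and shNS cells from left to right and an asterisk on members below the filter. Blue is lower and red higher, and colours end at -1.5 and 1.5. The shKAT2B columns are blue in the Gsta, Gstm and tested Ugt2b rows and in Akr1c14, while Ugt2b1, below the filter, is mixed. The shWDR5 columns are blue in the Gstm rows, Gstk1 and Sult1d1, and Akr1c18 changes with the library set in every arm.

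The 13 members below the filter were Gstt4, Mgst2, Ugt2a3, Ugt2b1, Ugt2b37, Ugt3a2, Sult1a1, Sult1b1, Sult2b1, Sult4a1, Sult5a1, Akr1c6 and Akr1c19. In a fit without the filter, 4 of them passed in shKAT2B cells against shNS, where 10.9% of all 16401 genes did. In shWDR5 cells 0 passed by limma, where 6.62% of all genes did, and 2 of the 13 had an unadjusted p below 0.05. The share of all genes at that unadjusted threshold in this fit is not given here. Akr1c19, from the cluster of Akr1c14, was at 5.78, 6.21 and 5.83 in shKAT2B libraries, against 6.93, 6.83, 6.76 and 6.71 in shNS (-0.89, adjusted p = 0.00193). Ugt2b37, from the Ugt2b cluster, was at -0.53 (adjusted p = 0.0209) and Sult1a1, the phenol sulfotransferase, at -0.50 (adjusted p = 0.0225). Sult4a1 was at 0.47 (adjusted p = 0.0266). Within each arm Ugt3a2 was lower in the libraries of the first set than in those of the second.

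The cofactors these enzymes use come from other genes, taken here from lists of pathway genes. The counts of these lists stand beside 15.6% of all genes called in shKAT2B cells and 10.9% in shWDR5 cells. Between the depletion arms 22.7% of all genes were called, and with glucagon 0.923%. At an unadjusted p below 0.05, 3331 of all 11480 genes tested passed in shKAT2B cells and 2956 in shWDR5 cells. The lists were not tested against each other or against all genes. Of 11 tested genes of glutathione supply, 8 fell in shKAT2B cells against shNS, with a median of -0.65, and 0 changed in shWDR5 cells (median 0.02). Gclc, the catalytic subunit of the enzyme that limits glutathione synthesis, was at 13.05, 12.61 and 12.53 in shKAT2B libraries, against 13.75, 13.53, 13.65 and 13.57 in shNS (fall of 0.91 ± 0.11, adjusted p = 0.00108). Its modifier subunit Gclm fell by 0.66 ± 0.10, and Gsr, which recycles glutathione, by 0.23 ± 0.04, and Cth, which makes cysteine, fell 2.15-fold (adjusted p = 0.0103). Between the arms 7 of the 11 were lower in shKAT2B than in shWDR5 cells, the cystine importer Slc7a11 among them (-0.99, adjusted p = 0.00809). At an unadjusted p below 0.05, 1 of the 11 passed in shWDR5 cells.

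Of 8 genes of UDP-glucuronate supply, 4 fell in shKAT2B cells and 1 in shWDR5 cells. Ugdh, which makes UDP-glucuronate, was at 12.65, 12.75 and 12.69 in shKAT2B libraries, against 13.12, 13.11, 13.03 and 13.05 in shNS (fall of 0.39 ± 0.04, adjusted p = 0.00088), and at -0.02 (adjusted p = 0.852) in shWDR5 cells. Slc35d1, which carries UDP-glucuronate into the endoplasmic reticulum, fell by 0.73 ± 0.08 in shKAT2B cells and by 0.63 ± 0.08 in shWDR5 cells. Entpd5 and Pgm1 fell by 0.59 and 0.33 in shKAT2B cells. Of 7 genes of sulfate donor supply, 1 fell in shKAT2B cells (Bpnt1, by 0.18) and 2 in shWDR5 cells (Bpnt1 by 0.32 and Suox by 0.37).

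Of 14 other carbonyl and aldehyde enzymes, 4 fell and 1 rose in shKAT2B cells, among them Aldh1a7 (fall of 1.12), the carbonyl reductases Cbr3 (fall of 0.81) and Cbr1 (fall of 0.51), and Dcxr, which rose by 0.39. In shWDR5 cells 0 of the 14 were called (5 at an unadjusted p below 0.05). Of 9 tested genes for other conjugating enzymes or epoxide hydrolases, 1 fell in shKAT2B cells (the epoxide hydrolase Ephx2, by 0.45). In shWDR5 cells 3 fell (Ephx2 by 0.47, the methyltransferases As3mt by 0.55 and Tpmt by 0.34). Of 7 conjugate exporters, 3 fell in shKAT2B cells (Abcc4 by 0.62, Abcb1a by 0.36 and Abcc2 by 0.28). In shWDR5 cells Abcc1 rose by 0.32 and Abcc6 fell by 0.28.

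Among 23 tested regulators, 7 fell in shKAT2B cells and 1 rose in shWDR5 cells. Nr1i2, the xenobiotic receptor PXR, was at 8.62, 8.12 and 7.98 in shKAT2B libraries, against 9.49, 9.22, 9.52 and 9.28 in shNS (fall of 1.16 ± 0.15, adjusted p = 0.00144), and at -0.51 (adjusted p = 0.0597) in shWDR5 cells. Maff, a small Maf partner of NRF2, fell by 0.64, Hnf4a by 0.33 and Esr1 by 0.32 in shKAT2B cells, and the repressor Bcl6 rose by 0.40 in shWDR5 cells. Nfe2l2, which encodes NRF2, was at 0.03 in shKAT2B cells (adjusted p = 0.85) and -0.02 in shWDR5 cells (adjusted p = 0.923), with 12.97 to 13.28 in shKAT2B, 12.92 to 13.17 in shWDR5 and 12.83 to 13.21 in shNS libraries. Bach1, a repressor at NRF2-bound elements, was the only regulator called with glucagon (0.66 ± 0.12, adjusted p = 0.0363). Of 15 other NRF2 targets, 7 fell in shKAT2B cells (Srxn1 by 0.94, Txnrd1 by 0.68, Blvrb by 0.66 and Pgd by 0.48) and 1 in shWDR5 cells (Me1 by 0.33). Of 4 tested target enzymes of xenobiotic receptors, 0 were called in shKAT2B cells (2 at an unadjusted p below 0.05) and 1 rose in shWDR5 cells (Tiparp, by 0.65).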

How the data were processed

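Values deposited by the authors are linear intensity for 26913 features of an Affymetrix Mouse Gene array in 10 libraries. They come from Affymetrix Expression Console 1.1.1, per the submitters' processing notes. How they were normalized is not given in the sources used. Each deposited intensity is the power of a log2 value with 2 decimals. Features were named by the platform annotation: 17873 had 1 gene symbol, 1128 several and 7912 none, and all 49 member gene IDs matched RefSeq. Each gene was represented by its brightest feature over the libraries, log2(intensity + 1) was taken and the lowest 30 percent of the 16401 genes by mean were left out (11480 tested).

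Differences were fitted with limma 3.58.1 (lmFit, eBayes with trend, two-sided) in R 4.3.3 on all genes. An additive model of arm and treatment had 6 residual degrees of freedom, and a model of the 6 groups, for the differences of glucagon responses, had 4. Groups with 1 library were taken to vary like the others. Adjusted p are Benjamini-Hochberg values over all genes tested, called below 0.05, and errors are standard errors. Tables were made with pandas 2.3.3 and numpy 2.4.6 in Python 3.11.15, and figures with matplotlib 3.10.9. The fit was also tested on simulated data, but no outcome of that test is given here and no call rests on it.

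Members, gene lists, the naming rule and the other settings were chosen with earlier results of these data known. Named were Akr1c14, Gsta3 and Gstm1, up to 3 members per family with the highest mean, up to 8 called members per comparison and direction (where fewer than 3, those with the smallest p), members nearest the filter, up to 4 called genes per list, and Nfe2l2. Members that fell outside this rule were named after their values were seen. The alternatives were a pseudocount of 16, no filter or a filter of 50 percent, quantile normalization, centring on the library median, averaging the features of a gene, eBayes without the trend, the letter A or B as a replicate block, a library set term and leaving out each library. A fit on the second library set alone was added after seeing the data. The letters come from the titles. Deviations of the A libraries from their group means correlated across genes with r between 0.721 and 0.844 for the pairs of replicated groups, so the letters were taken to pair those groups.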

Additional observations from a re-analysis of the deposited data

How the results depend on the processing

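The number of members called lower or higher stayed within 1.5 times its value (19 for shKAT2B minus shNS, 15 for shWDR5 minus shNS, 18 for shKAT2B minus shWDR5 and 0 for glucagon) in every setting that used all 10 libraries and on the second library set alone. With the replicate block they were 27, 19, 21 and 0, and the block ended no member's call. With the library set as a term they were 27, 22, 24 and 0, and on the second set alone 25, 21, 23 and 0. The library set was read from the same libraries, so its p-values are too small. Over all genes the calls grew by more than 1.5 times in these fits. For shKAT2B minus shNS they were 1792 as reported, 3396 with the block, 4766 with the set term and 4267 on the second set. For shWDR5 minus shNS they were 1246, 3064, 4229 and 3205, between the depletion arms 2609, 4139, 5788 and 5196, and for glucagon 106, 287, 385 and 309. With 1 library left out, counts ranged from 10 to 19 for shKAT2B minus shNS, 4 to 17 for shWDR5 minus shNS and 12 to 18 between the depletion arms, and were 0 for glucagon. Where a depletion arm lost its lone PBS library, its difference of glucagon responses could not be fitted. The replicate block gave 3 members in place of 0 for each difference of glucagon responses. It codes the depletion arms' PBS libraries as A, though both lie in the second set. Glucagon minus PBS within that set, from 1 library each, was 0.08 for Akr1c18, -0.13 for Gsto2 and 0.16 for Akr1b10 in shKAT2B cells. In shNS cells it was -0.26, 0.34 and -0.07. For Ugt2b5, Akr1b10 and Gstm3 it was -0.10, 0.16 and -0.04 in shWDR5 cells, against 0.02, -0.07 and 0.05 in shNS. What the coding added to these calls was not tested.

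Without the filter Akr1b8, Gstm2 and Sult1c2 lost their call in shWDR5 cells (adjusted p = 0.0581, 0.0513 and 0.0559), Gstm5 in shKAT2B cells (0.0645) and Akr1b8 between the arms (0.0654). Quantile normalization ended Gstm2 in shWDR5 (0.0557) and Gstm5 in shKAT2B cells (0.0604). Without the trend Gsto1 was lost in shKAT2B cells (0.056) and Gstp1 and Ugt2b34 between the arms (0.0688 and 0.0541). None of the named values changed sign past the threshold in any setting run (0 reversed).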

Other observations

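In shKAT2B cells the 5 tested Ugt2b genes of chromosome 5 were all below 0, between -1.35 and -0.24, and so were the 7 Gstm genes of chromosome 3, between -0.71 and -0.21. For Gstm3 this holds for the brighter feature only, as the dimmer was at 0.03 as a plain difference of arm means. The 5 tested Akr1c genes of chromosome 13 lay between -1.78 for Akr1c14 and 0.55 for Akr1c18. On chromosome 10 Gstt3 was at 0.39 and the adjacent Gstt1 at -0.35. In shWDR5 cells Gsto2 on chromosome 19 was at 0.80 and the adjacent Gsto1 at 0.06, and Sult1d1 on chromosome 5 was at -0.66 while the Ugt2b genes nearby lay between -0.41 and 0.15.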
